A study of Homo sapiens with 8 samples.

Results

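Aminoacyl-tRNA synthetases, the enzymes that join each amino acid to its tRNA, were followed in RNA from KG-1a cells, a human acute myeloid leukaemia line of immature type, with and without a knockdown of NYNRIN. The 35 genes were chosen by name, 19 for the cytosolic enzymes and 16 for the mitochondrial ones, out of 13068 genes that both deposited tables list. Of the 35, 31 could be tested, 17 cytosolic and 14 mitochondrial. IARS1, VARS1 and VARS2 are listed in the second table alone, and SARS2 was not analysed here.

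The study compared control cells (shCTL, genotype WT in the labels) with cells given a short hairpin RNA against NYNRIN (shNYNRIN, genotype NYNRIN-knockdown). Both kinds of cell received their hairpin by lentivirus and were sorted before RNA extraction, and each group has 4 libraries. All 8 libraries come from 1 cell line, and the labels do not say how many different hairpins were used. The first table, called set 1 here, holds shCTL replicates 1 and 2 and shNYNRIN replicates 1 and 2, and the second, called set 2, holds replicates 3 and 4 of each group. Levels are in FPKM, a read density scaled for the length of the transcript and the size of the library, so they can be compared between genes.

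A cell builds proteins in the cytosol and, for a few subunits of the respiratory chain, inside mitochondria, and most amino acids have a separate enzyme for each place. By convention the gene for the cytosolic enzyme ends in 1 and the one for the mitochondrial enzyme ends in 2. GARS1 and KARS1 supply both compartments from 1 gene and are counted here with the cytosolic enzymes, and FARSA and FARSB encode the subunits of the cytosolic phenylalanine enzyme. Many cytosolic synthetase genes are textbook targets of ATF4, the transcription factor of the amino acid response, which switches on genes for amino acid synthesis, uptake and tRNA charging when amino acids run short.

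The libraries were alike in size, with sums of 303519 to 311536 FPKM over the genes in both tables. The column of shCTL replicate 3 holds whole numbers only, which lay 0.50 below shCTL replicate 4 at the median of 3537 genes, so its values are printed but took no part in the tests. Set 2 therefore rests on a lone control, taken to have the same spread as the other groups. The target NYNRIN stood at 12.2 and 12.5 FPKM in the controls of set 1 and 6.98 and 7.30 with its hairpin, and at 10.4 FPKM in shCTL replicate 4 (10 in replicate 3) and 2.83 and 2.84 with the hairpin in set 2. The library names in the labels number the controls differently from the titles: shCTL replicates 1, 2, 3 and 4 are names 3, 4, 1 and 2, while shNYNRIN replicates keep their numbers, so each set compares libraries of unlike name numbers. Of 4 progenitor markers, PTPRC and SPN were clearly present, CD34 lay between 0.68 and 1.79 FPKM and CD7 was under 1 FPKM in all 7 tested libraries. Of 15 markers of other blood or stromal cells, 8 were under 1 FPKM in all 7 tested libraries and 2 were not listed. The summed level of the 15 was 59.9 and 61.3 FPKM in the controls of set 1 and 67.8 and 73.9 FPKM with the hairpin, and 72.8 FPKM in shCTL replicate 4 and 60.2 and 65.7 FPKM with the hairpin in set 2. More than any other marker the sum held HBB (31.4 to 50.8 FPKM), which fell in set 2 (-0.56, limma adjusted p = 0.0113). LYZ rose in both sets (0.49 and 0.43) and so did ALAS2 (0.48 and 0.35), each also over both sets together (limma adjusted p = 0.0479), and the part of these markers in the results was not tested.

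The cytosolic enzymes were the more abundant class. Their mean levels over the 7 tested libraries ran from 1.49 FPKM for CARS1 to 163.9 FPKM for YARS1, with a median of 54.4 FPKM. Mitochondrial enzymes ran from 3.07 FPKM for FARS2 to 45.5 FPKM for IARS2, with a median of 11.6 FPKM. Among the 10 amino acids with both enzymes tested, cysteine was the 1 whose cytosolic enzyme was the lower in every tested library: CARS1, the cytosolic cysteine enzyme, was below its mitochondrial partner CARS2, with 0.947 to 1.92 FPKM against 12.7 to 16.3 FPKM in the tested libraries. The cytosolic isoleucine enzyme IARS1 was listed at 0.395 FPKM in shCTL replicate 4 and at 0.389 and 0.374 FPKM in the shNYNRIN libraries of set 2, also below its mitochondrial counterpart IARS2. VARS1, the cytosolic valine enzyme, was listed at 0.152 FPKM in that control and at 0.119 and 0.156 FPKM with the hairpin, and its mitochondrial counterpart VARS2 did not pass 0.0815 FPKM. These levels of IARS1 and VARS1 are far below those of most other cytosolic enzymes, and all 3 genes stayed out of the tests. Whether the annotation or the quantification lowered the listed values of IARS1 and VARS1 was not tested.

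In set 1 most cytosolic synthetases fell with the NYNRIN hairpin, while some mitochondrial ones rose. Of 17 cytosolic enzymes 11 fell and 1 rose, and of 14 mitochondrial enzymes 4 rose and none fell, where 6.61% of all tested genes fell and 9.33% rose. The median log2 fold change was -0.17 for the cytosolic class and 0.15 for the mitochondrial class, beside 0.026 over all genes tested. Calls are those of limma on log2(FPKM + 1), two-sided and adjusted by Benjamini and Hochberg's method across 12939 genes, and log2 fold changes are on that scale throughout. The bulk measurement cannot tell fewer cells that express a gene from less of its RNA in each cell.

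GARS1, the glycine enzyme of both compartments, showed the deepest fall, from 32.8 and 33.1 FPKM in the controls to 22.7 and 22.8 FPKM with the hairpin. Its log2 fold change was -0.52 (SE 0.035; adjusted p = 0.000835 by limma). WARS1, the tryptophan enzyme, went from 42.5 and 42.2 FPKM to 31.6 and 31.2 FPKM, a log2 change of -0.42 ± 0.030 (SE; limma adjusted p = 0.000984). In both genes the control and hairpin libraries of set 1 were well apart and each pair of replicates was close. YARS1, the tyrosine enzyme and the most abundant of all the synthetases, fell from 173.1 and 175.5 FPKM to 138.3 and 137.2 FPKM, by 0.34 on the log2 scale (SE 0.026; adjusted p = 0.00124 by limma). AARS1, which charges alanine, fell from 56.8 and 56.3 FPKM to 45.4 and 43.9 FPKM, by 0.33 (SE 0.034; adjusted p = 0.00313 by limma). HARS1, the histidine enzyme, fell from 24.1 and 23.4 FPKM to 19.1 and 18.1 FPKM, by 0.34 (SE 0.042; adjusted p = 0.00552 by limma). MARS1, which charges methionine on both the initiator and the elongator tRNA, fell from 91.2 and 87.8 FPKM to 74.8 and 71.6 FPKM, by 0.29 (SE 0.034; adjusted p = 0.00479 by limma). For all of these 6 genes both hairpin libraries lay below both controls. Here and for the called genes below, that order is no separate support, because the calls rest on the same libraries. The calls of these 6 genes held under each of the 18 alternatives run. Exons of HARS1 share 8.4% of their bases with HARS2 and WDR55 in GENCODE 29, those of MARS1 share 13.3% with ARHGAP9, DDIT3 and MIR6758, and those of WARS1 share 10.6% with WDR25 and AL157871.4. No source used here says whether reads were counted by strand, so the values of these genes are uncertain to that extent.

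The other 5 cytosolic enzymes that fell did so from a wide range of levels. CARS1 went from 1.60 and 1.75 FPKM to 0.9999 and 0.947 FPKM, and its log2 fold change of -0.44 (SE 0.10; adjusted p = 0.0340 by limma) understates the change because of the 1 FPKM added to so low a gene. TARS1, the threonine enzyme, went from 133.2 and 141.3 FPKM to 117.2 and 124.3 FPKM, a log2 change of -0.18 ± 0.040 (SE; limma adjusted p = 0.0279). SARS1, which charges serine and also starts selenocysteine on its tRNA, went from 94.8 and 96.3 FPKM to 88.7 and 80.8 FPKM, a log2 change of -0.17 ± 0.046 (SE; limma adjusted p = 0.0465). The falls of EPRS1, the joined glutamate and proline enzyme (-0.15, limma adjusted p = 0.0253), and NARS1, the asparagine enzyme (-0.12, limma adjusted p = 0.0281), were the smallest to pass. EPRS1 stood at 74.1 and 72.3 FPKM against 65.0 and 67.2 FPKM, and NARS1 at 114.2 and 115.2 FPKM against 103.6 and 106.9 FPKM. In all 5 genes the groups of set 1 did not overlap, but the calls were lost in 8 of 18 alternatives for EPRS1, NARS1, SARS1 and TARS1 and in 9 of 17 for CARS1.

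KARS1, the lysine enzyme that serves both compartments, was the only cytosolic member to rise. Its levels were 95.6 and 98.6 FPKM in the controls and 111.5 and 107.7 FPKM with the hairpin, a log2 change of 0.17 ± 0.030 (SE; limma adjusted p = 0.0141). Thus the 2 genes counted as cytosolic but shared by both compartments, GARS1 and KARS1, moved in opposite directions. The remaining 5 cytosolic enzymes did not pass, with log2 fold changes of -0.12 for LARS1, -0.10 for QARS1, 0.038 for FARSB, 0.079 for FARSA and 0.18 for RARS1. RARS1, the arginine enzyme, stood at 49.4 and 48.3 FPKM in the controls and 52.5 and 58.6 FPKM with the hairpin, apart but with hairpin libraries that differed from each other (limma adjusted p = 0.0614).

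**Figure D1:**
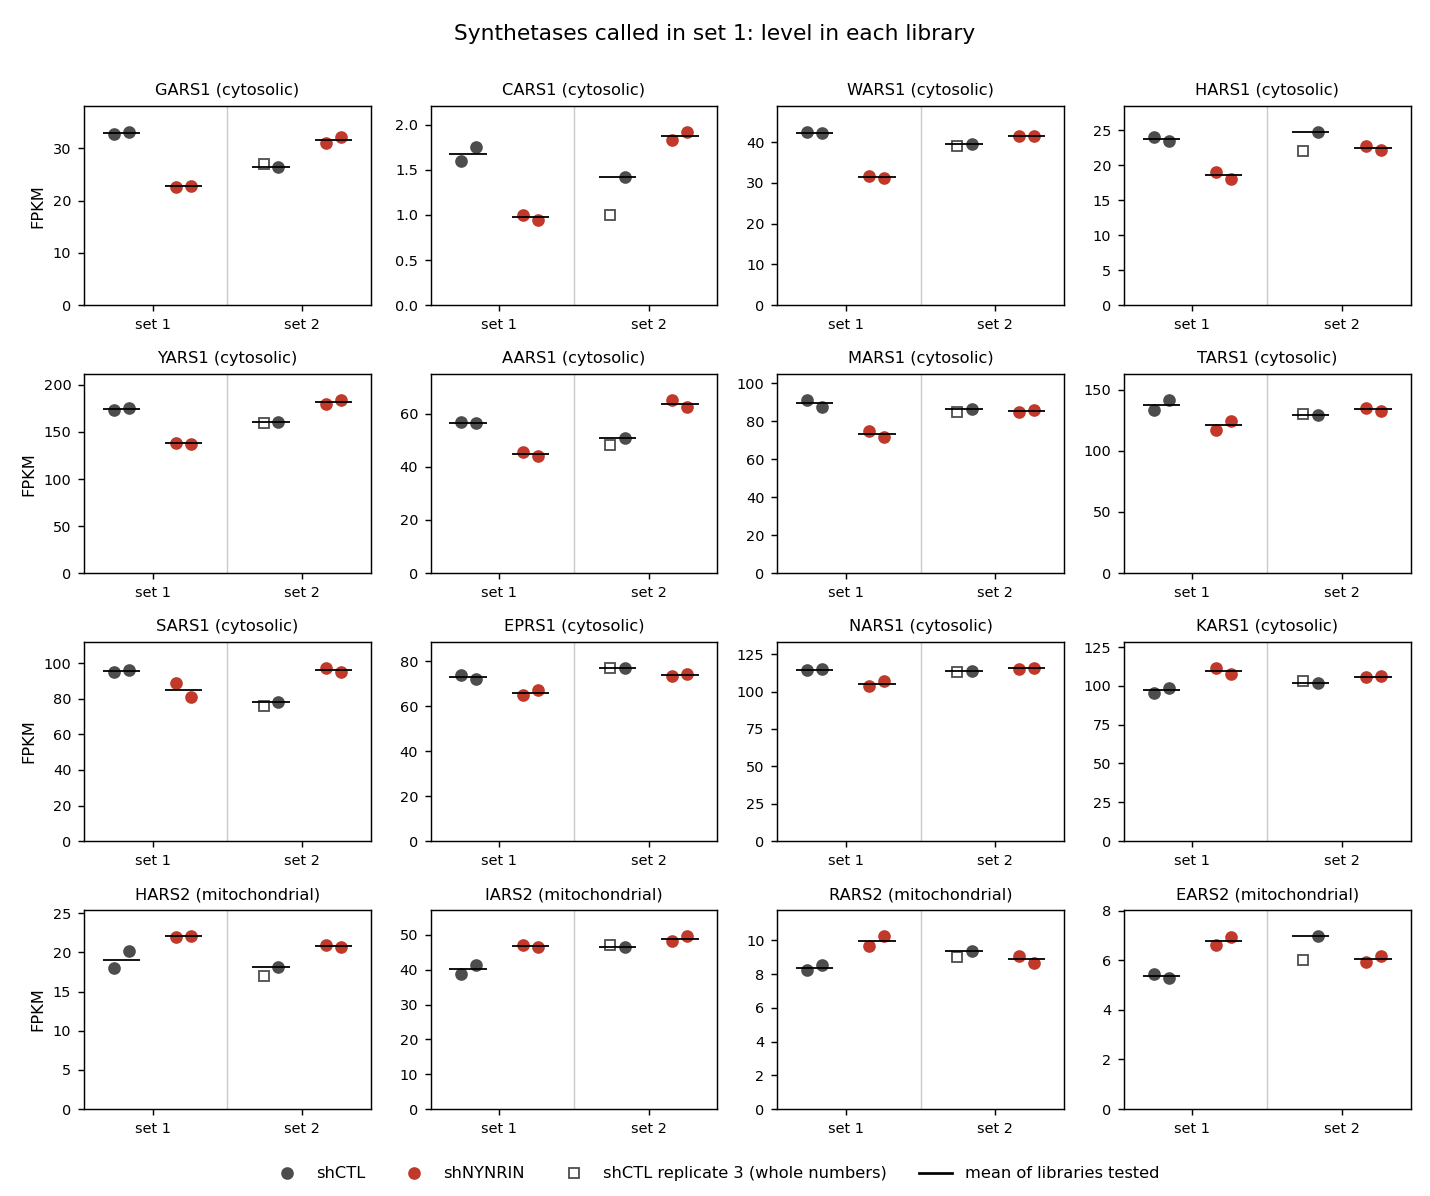
Level (FPKM, vertical axis from 0) of each of the 16 synthetases called in set 1, in each library; grey points are shCTL, red points shNYNRIN, open squares the whole-number column of shCTL replicate 3, and lines the mean of the tested libraries of a group. In set 1 the 11 cytosolic genes that fell sit lower in red than in grey. GARS1, CARS1, YARS1, AARS1 and SARS1 show the opposite order in set 2, as do TARS1, NARS1 and WARS1 by smaller steps.

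Among the mitochondrial enzymes EARS2, which charges glutamate, rose most in set 1. It stood at 5.44 and 5.27 FPKM in the controls and 6.61 and 6.94 FPKM with the hairpin, a log2 change of 0.29 ± 0.056 (SE; limma adjusted p = 0.0189). RARS2, the mitochondrial arginine enzyme, went from 8.24 and 8.52 FPKM to 9.68 and 10.3 FPKM, a log2 change of 0.23 ± 0.053 (SE; limma adjusted p = 0.0336). IARS2, the isoleucine enzyme and the most abundant of the class, went from 38.8 and 41.5 FPKM to 47.3 and 46.7 FPKM, a log2 change of 0.22 ± 0.040 (SE; limma adjusted p = 0.0160). HARS2, the histidine enzyme, went from 18.0 and 20.1 FPKM to 22.0 and 22.1 FPKM, a log2 change of 0.20 ± 0.054 (SE; limma adjusted p = 0.0494). In all 4 genes both hairpin libraries lay above both controls. HARS2 shares 15.8% of its exon bases with HARS1 and ZMAT2, so HARS1 and HARS2 moved in opposite directions while part of their sequence overlaps on opposite strands.

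The 10 mitochondrial enzymes that did not pass in set 1 had log2 fold changes of -0.11 for CARS2 to 0.19 for PARS2, and 9 of these were above 0. AARS2, the alanine enzyme, stood at 20.7 and 19.4 FPKM in the controls and 22.3 and 21.8 FPKM with the hairpin (0.13, limma adjusted p = 0.0877). LARS2, the leucine enzyme and 1 of the least abundant of the class, stood at 3.68 and 3.88 FPKM and at 4.49 and 4.33 FPKM (0.18, limma adjusted p = 0.163). FARS2, the phenylalanine enzyme with the lowest mean level of the class, stood at 2.81 and 2.48 FPKM and at 3.26 and 2.82 FPKM (0.15, limma adjusted p = 0.299). TARS2, the threonine enzyme and next in level to IARS2, stood at 24.1 and 25.1 FPKM and at 25.4 and 26.9 FPKM (0.083, limma adjusted p = 0.219).

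The count of 16 calls in set 1 changed when single libraries were left out. Of those named next, shNYNRIN replicates 3 and 4 belong to set 2 and enter set 1 only through the shared estimate of spread. Leaving either out kept the set 1 medians at -0.17 for the cytosolic and 0.15 for the mitochondrial class. Without shCTL replicate 1 there were 6, without shCTL replicate 2, shNYNRIN replicate 3 or shNYNRIN replicate 4 there were 9 each, and the calls of HARS2, RARS2 and CARS1 were the least steady, lost in 13 of 18, 9 of 17 and 9 of 17 alternatives. Those of KARS1, IARS2 and EARS2 were lost in 3 of 18, 4 of 18 and 4 of 17. The authors' deposited table gives a q-value for set 1 from their own test. At 0.05 it marks 13 cytosolic enzymes lower and 2 higher and 3 mitochondrial enzymes higher. Over all genes with such a q-value it marks 1379 lower and 1228 higher. Upper-quartile scaling turned the split over all genes from 1207 higher and 855 lower to 809 higher and 1173 lower, and the members then gave 1 higher and 13 lower in the cytosolic class and 2 higher and none lower in the mitochondrial class.

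Because ATF4 targets carry the C/EBP-ATF response element, the promoters of the synthetases were searched for its core, TGATGCAA, and for the looser TGATGNAA, which contains it. Windows reached from 250 bases before to 50 after each annotated start in RefSeq (GRCh38.p14), and both strands were read. Windows were present for 30 of the 35 genes, 39 windows in all, and none was found for LARS1, VARS1, YARS1, AARS2 or VARS2. The core stood in 6 of the 39 windows, each of a different gene, and in 304 of 35116 windows of all genes (0.866%). The looser form stood in 8 of the 39 and in 3.62% of all windows. All 8 matches are printed 5′ to 3′ on the strand of the gene with the motif in capitals, because they show which enzymes share these letters. The matches in GARS1 and YARS2 are to the looser form only.
AARS1: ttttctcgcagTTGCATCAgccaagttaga
CARS1: cggggcggcggTTGCATCAgattctaggaa
IARS1: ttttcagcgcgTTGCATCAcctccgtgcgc
MARS1: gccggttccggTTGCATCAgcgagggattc
NARS1: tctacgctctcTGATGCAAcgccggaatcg
TARS1: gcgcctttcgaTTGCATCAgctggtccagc
GARS1: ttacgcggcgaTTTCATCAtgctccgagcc
YARS2: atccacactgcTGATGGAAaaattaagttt

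The printed stretches lie at chr16:70289675-70289704 (AARS1, minus strand), chr11:3057407-3057436 (CARS1, minus), chr9:92293692-92293721 (IARS1, minus), chr12:57488053-57488082 (MARS1, plus), chr18:57621804-57621833 (NARS1, minus), chr5:33440956-33440985 (TARS1, plus), chr7:30594834-30594863 (GARS1, plus) and chr12:32756076-32756105 (YARS2, minus). The motif begins 2 bases before the start in CARS1, 4 before in MARS1, 13 before in IARS1 and 33 before in GARS1. In TARS1 and NARS1 it begins at bases 3 and 15 of the transcript, and in AARS1 and YARS2 it is farther upstream, at positions -187 and -197 from the start. Of the tested cytosolic genes with a window, the 5 with TGATGCAA (AARS1, CARS1, MARS1, NARS1 and TARS1) all fell in set 1, with a median log2 fold change of -0.29, and 5 of the 10 without it fell, with a median of -0.12. In set 2, 1 of the 5 with it and 2 of the 10 without it rose. WARS1 and HARS1 fell without these letters in their windows. A match describes the sequence only and is no evidence that a factor binds there.

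In set 2 the direction was different. Of 17 cytosolic enzymes 4 rose with the hairpin and none fell, and of 14 mitochondrial enzymes 1 fell and none rose, where 11.6% of all tested genes rose and 8.71% fell. The share of cytosolic enzymes that rose was above that of all genes, although it rests on 4 genes. The share of mitochondrial enzymes that fell was close to that of all genes. The genes tested include many under 10 FPKM, and a share among genes as abundant as the cytosolic enzymes was not worked out. The median log2 fold change was 0.054 for the cytosolic and -0.052 for the mitochondrial class, beside 0.018 over all genes. Without GARS1 and KARS1, which serve both compartments, the cytosolic median was 0.022, close to that of all genes. AARS1 read 50.9 FPKM in shCTL replicate 4 (48 in replicate 3) and 65.1 and 62.4 FPKM with the hairpin, a log2 change of 0.32 ± 0.042 (SE; limma adjusted p = 0.00376). SARS1 stood at 78.3 FPKM (76) and at 97.3 and 94.9 FPKM, a log2 change of 0.29 ± 0.056 (SE; limma adjusted p = 0.0137). GARS1 stood at 26.5 FPKM (27) and at 31.1 and 32.3 FPKM, a log2 change of 0.25 ± 0.043 (SE; limma adjusted p = 0.00913). YARS1 stood at 160.2 FPKM (160) and at 179.4 and 183.8 FPKM, a log2 change of 0.18 ± 0.031 (SE; limma adjusted p = 0.00993). All 4 of these enzymes had fallen in set 1, and in all 4 the whole-number control was also below both hairpin libraries.

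AARS2 was the 1 mitochondrial enzyme to fall in set 2, from 22.7 FPKM in shCTL replicate 4 (21 in replicate 3) to 19.9 and 19.7 FPKM, by 0.19 on the log2 scale (SE 0.052; adjusted p = 0.0462 by limma). None of the 4 mitochondrial enzymes that rose in set 1 passed in set 2. HARS2 and IARS2 had positive log2 fold changes there too, 0.19 and 0.075, and EARS2 and RARS2 negative ones, -0.18 and -0.072. CARS1 went from 1.42 FPKM (1) to 1.83 and 1.92 FPKM without passing (0.25, limma adjusted p = 0.221). WARS1 (39.5 FPKM, then 41.6 and 41.5) and MARS1 (86.3 FPKM, then 84.9 and 86.2), which fell in set 1, had log2 fold changes of 0.070 and -0.012 in set 2. EPRS1 (76.9 FPKM, then 73.4 and 74.1), NARS1 (113.8 FPKM, then 115.3 and 115.75) and TARS1 (128.8 FPKM, then 134.7 and 132.7) had -0.060, 0.022 and 0.054. HARS1 was 24.7 FPKM (22) in the controls and 22.8 and 22.1 FPKM with the hairpin (-0.13, limma adjusted p = 0.118), the 1 strongly lowered enzyme of set 1 whose value in set 2 pointed the same way by more than 0.1. In place of 5 calls there were 3 without shNYNRIN replicate 3, 1 without shNYNRIN replicate 4, and 9 with the whole-number control added as deposited, which also turned the mitochondrial median to 0.035. The call of AARS1 held under all 14 alternatives, and those of GARS1, YARS1, SARS1 and AARS2 were lost in 1, 2, 3 and 6 of them.

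**Figure D2:**
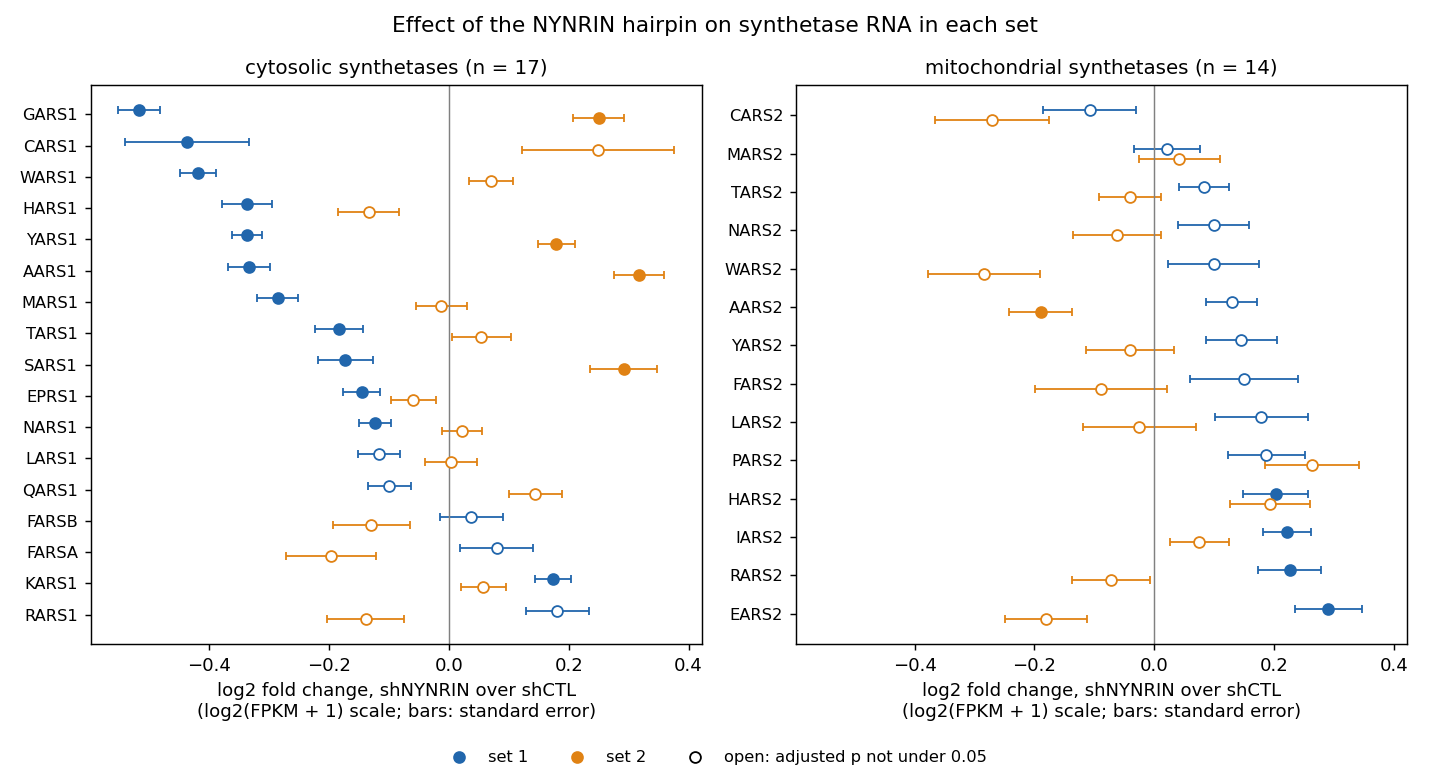
Log2 fold change of shNYNRIN over shCTL for the 17 cytosolic and 14 mitochondrial synthetases tested (horizontal axis; log2(FPKM + 1) scale), in set 1 (blue) and set 2 (orange), with standard errors as bars and filled points for an adjusted p under 0.05. In set 1 the cytosolic points reach from -0.52 to 0.18 and 13 of 14 mitochondrial points are above 0, and in set 2 the cytosolic points reach from -0.20 to 0.32.

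The effect of the hairpin differed between the sets for 13 of the 31 enzymes by the interaction term of limma. For 9 cytosolic enzymes the effect in set 2 was above that in set 1, where 10.3% of all genes were, and for RARS1 and 3 mitochondrial enzymes it was below, where 10.02% of all genes were. The largest differences were 0.77 for GARS1 (SE 0.055; adjusted p = 0.000604 by limma), 0.69 for CARS1 (SE 0.16; adjusted p = 0.0283 by limma) and 0.65 for AARS1 (SE 0.054; adjusted p = 0.000832 by limma). YARS1 followed with 0.52 (limma adjusted p = 0.000744), WARS1 with 0.49 (limma adjusted p = 0.00136) and SARS1 with 0.46 (limma adjusted p = 0.00667). MARS1, QARS1 and TARS1 differed by 0.27, 0.24 and 0.24. QARS1, the glutamine enzyme, stood at 115.5 and 121.7 FPKM against 113.0 and 108.3 FPKM with the hairpin in set 1, and at 105.0 FPKM (105) against 115.1 and 117.2 FPKM in set 2. It passed in neither set, and its controls differed more between the sets than its hairpin libraries did.

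Differences in the other direction were -0.47 for EARS2 (limma adjusted p = 0.0132), -0.32 for AARS2 (limma adjusted p = 0.0191), -0.32 for RARS1 (limma adjusted p = 0.0383) and -0.30 for RARS2 (limma adjusted p = 0.0491). EARS2 read 6.97 FPKM in shCTL replicate 4 (6) and 5.92 and 6.15 FPKM with the hairpin in set 2, the reverse of its order in set 1. RARS2 stood there at 9.38 FPKM (9) and at 9.10 and 8.66 FPKM, and RARS1 at 55.3 FPKM (54) and at 49.3 and 51.1 FPKM. The differences of AARS1, GARS1, SARS1, WARS1 and YARS1 passed under each of the 14 alternatives run. The count of 13 dropped to 7 without shCTL replicate 2 and to 6 without either shNYNRIN replicate 3 or shNYNRIN replicate 4.

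The difference between the sets cannot be told apart from the number in the library names. Names 1 and 2 belong to the controls of set 2 and the hairpin libraries of set 1, and names 3 and 4 to the controls of set 1 and the hairpin libraries of set 2, so the contrast that sets the sets apart is the same as names 3 and 4 against names 1 and 2. In 10 of 17 cytosolic enzymes every tested library named 1 or 2, with either hairpin, was below every library named 3 or 4, where 7.86% of all genes had that order. These were AARS1, CARS1, GARS1, LARS1, NARS1, QARS1, SARS1, TARS1, WARS1 and YARS1. GARS1 read 26.5, 22.7 and 22.8 FPKM in the libraries named 1 or 2 and between 31.1 and 33.1 FPKM in those named 3 or 4. The opposite order held for RARS1 and for 3 of 14 mitochondrial enzymes (AARS2, EARS2 and RARS2), where 9.08% of all genes had it. The progenitor markers also parted by name number, in both directions. PTPRC read 23.2 to 24.4 FPKM in the tested libraries named 1 or 2 and 27.0 to 30.7 FPKM in those named 3 or 4, and SPN 64.8 to 67.5 FPKM and 73.9 to 79.8 FPKM. These markers make up nearly all of the summed level of the 4, which was 90.5 to 92.4 FPKM and 101.9 to 111.5 FPKM. CD34 ran the other way, with 1.79, 1.42 and 1.199 FPKM in names 1 or 2 and 0.68 to 0.95 FPKM in names 3 or 4 (set 2 effect minus set 1 effect -0.94, limma adjusted p = 0.0166), and the part of these markers in the results was not tested.

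**Figure D3:**
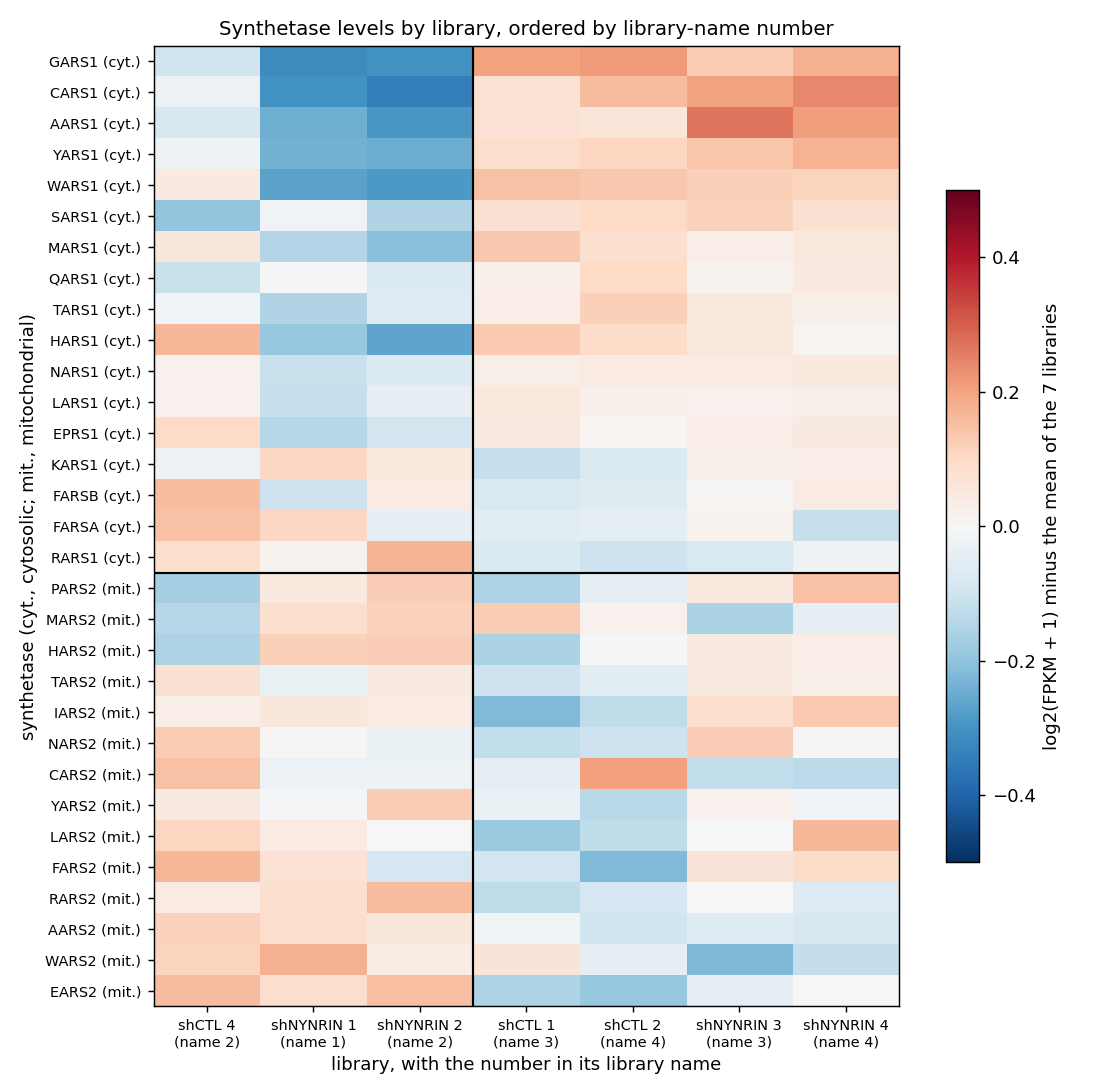
Each of the 31 tested synthetases (rows, cytosolic above the line) in the 7 tested libraries (columns), as log2(FPKM + 1) minus the gene's mean, red for above and blue for below; the vertical line parts libraries named 1 or 2 from those named 3 or 4. GARS1, CARS1, AARS1, YARS1 and WARS1 at the top are bluest in shNYNRIN replicates 1 and 2 and red in all 4 libraries named 3 or 4.

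When libraries were matched by name number instead of by table, the comparison ran across the tables and was not tested. Between names 1 and 2 the median log2 ratio of shNYNRIN to shCTL was -0.18 for the cytosolic enzymes, 13 of 17 of them below 0, and -0.019 for the mitochondrial ones. Between names 3 and 4 it was 0.0075 for the cytosolic enzymes, 7 of 17 below 0, and 0.12 for the mitochondrial ones, 4 of 14 below 0. HARS1, WARS1 and CARS1 had the lowest ratios among names 1 and 2, with -0.39, -0.32 and -0.29. For HARS1 and WARS1 the ratio was also below 0 among names 3 and 4 (-0.078 and -0.026), while it was 0.10 for CARS1.

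A single effect of the hairpin fitted to both sets was called for none of the 31 enzymes, where 0.317% of all genes (41 of 12939) were called. At an unadjusted p under 0.05 there were 8 of the 31 members and 2423 of the 12939 genes. Without a mean-variance trend limma called 0 members, but it also called 0 of the 12939 genes. The lowest value was that of HARS1, at -0.26 (SE 0.056; adjusted p = 0.0929 by limma), and the highest that of PARS2, the mitochondrial proline enzyme, at 0.22 (SE 0.056; adjusted p = 0.118 by limma). PARS2 stood at 6.92 and 7.51 FPKM in the controls and 8.11 and 8.60 FPKM with the hairpin in set 1, and at 6.85 FPKM (7) and 8.12 and 8.74 FPKM in set 2, so both hairpin libraries were above the controls in each set. HARS2, at 0.20 (limma adjusted p = 0.112), and IARS2, at 0.16 (limma adjusted p = 0.155), had hairpin libraries above the tested controls in each set as well. HARS2 read 18.1 FPKM (17), 20.9 and 20.7 FPKM in set 2 and IARS2 46.4 FPKM (47), 48.3 and 49.7 FPKM. KARS1, counted as cytosolic, also had hairpin libraries above the controls in each set, at 0.13 (limma adjusted p = 0.173). In set 2 KARS1 read 101.7 FPKM (103) and then 105.55 and 106.2 FPKM. How often other genes keep such an order in both sets was not worked out. With the lone tested control of set 2 it arises readily by chance, so it is no separate support. The count of 0 became 16 without shCTL replicate 4, when set 2 has no control left and the fit reduces to set 1. It became 10 when the effects of the 2 sets were averaged with equal weight in the model with 4 cells (1 cytosolic enzyme higher and 6 lower, 3 mitochondrial enzymes higher), a setting that called 1388 genes higher and 916 lower over all genes.

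For 10 amino acids the cytosolic and the mitochondrial enzyme could be set against each other within a library, which leaves out any scaling common to both genes. In set 1 the ratio of cytosolic to mitochondrial FPKM was lower in both hairpin libraries than in both controls for 9 of the 10. It overlapped for arginine. The ratios reuse the levels tested above, so they are no separate support. How often other pairs of genes keep such an order was not worked out. With so few libraries, above all the lone control of set 2, such an order arises readily by chance. The alanine ratio, AARS1 over AARS2, was 2.74 and 2.90 in the controls and 2.04 and 2.02 with the hairpin. The histidine ratio, HARS1 over HARS2, went from 1.34 and 1.16 to 0.867 and 0.818, so the cytosolic enzyme was above its partner in the controls and below it with the hairpin. The tyrosine ratio, YARS1 over YARS2, went from 10.5 and 11.5 to 8.26 and 7.42, and the tryptophan ratio, WARS1 over WARS2, from 6.50 and 7.06 to 4.42 and 4.87. In set 2 the ratio was above that of shCTL replicate 4 in both hairpin libraries for 6 amino acids, below it for histidine and methionine, and on both sides for leucine and arginine. The alanine ratio was then 2.24 in that control and 3.27 and 3.17 with the hairpin, and the histidine ratio 1.37 and then 1.09 and 1.07. Histidine and methionine were therefore the amino acids whose ratio was lower with the hairpin in both sets, although the methionine ratio of 4.04 in shCTL replicate 4 was close to the 4.03 of shNYNRIN replicate 3.

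**Figure D4:**
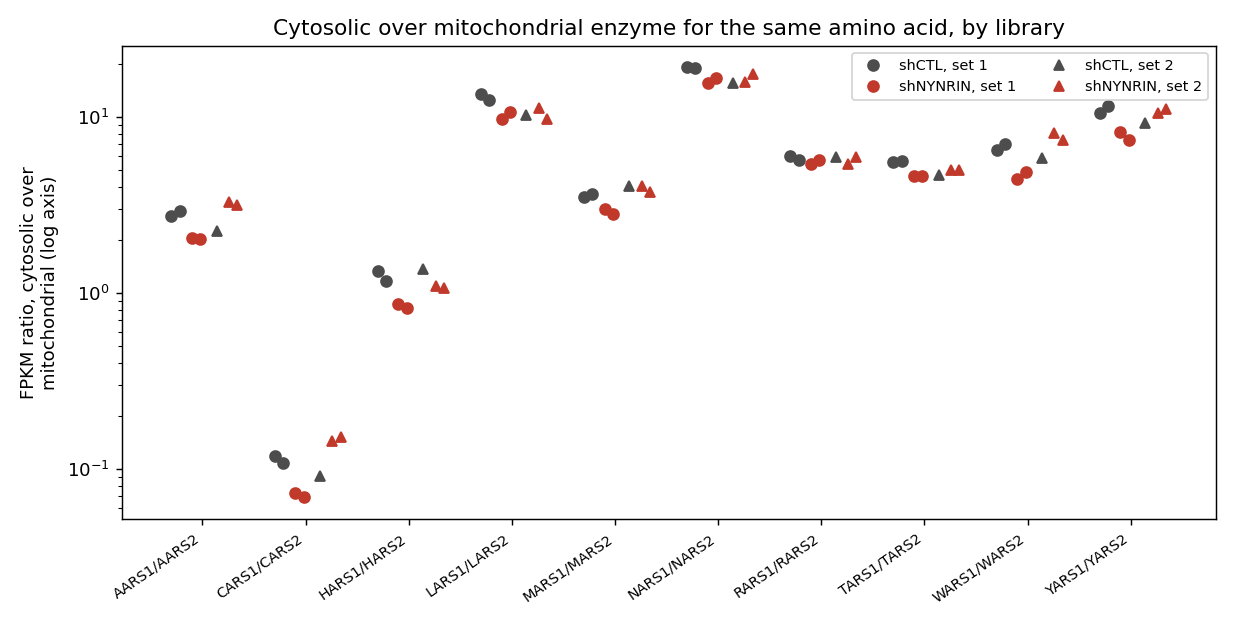
Ratio of cytosolic to mitochondrial FPKM (log axis) for 10 amino acids with both enzymes tested, 1 point per library; circles are set 1, triangles set 2, grey shCTL and red shNYNRIN. Red circles lie below the grey ones for 9 of 10 amino acids, and red triangles lie above the grey triangle for 6.

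Several cytosolic synthetases work together in a multi-enzyme complex, and the tested enzymes of that complex (EPRS1, KARS1, LARS1, MARS1, QARS1 and RARS1, a textbook grouping) were compared with the free ones. In set 1, 2 of these 6 fell and 1 rose, with a median log2 fold change of -0.11. Of the 11 free enzymes 9 fell and none rose, with a median of -0.33. FARSA and FARSB were the free enzymes that did not pass in set 1, and FARSA read 49.5 and 49.7 FPKM in the controls and 55.3 and 49.7 FPKM with the hairpin. FARSB, its partner subunit, read 20.2 and 20.4 FPKM in the controls and 19.8 and 21.9 FPKM with the hairpin, which overlaps. In set 2 the medians were -0.0042 for the complex and 0.070 for the free enzymes, and all 4 rises were of free enzymes. Over all tested genes 6.61% fell and 9.33% rose in set 1, and 11.6% rose in set 2. Both groups are small and the grouping was added during the analysis. The difference between the 2 groups of enzymes was not tested.

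Among 13 tested genes of the scaffold of that complex and of other partners of tRNA charging, 2 rose and none fell in set 1, with a median log2 fold change of 0.070, where 9.33% of all tested genes rose and 6.61% fell. In set 2 none passed in either direction, and the median was -0.0069. The scaffold AIMP1 read 15.6 and 15.2 FPKM in the controls of set 1 and 17.3 and 19.8 FPKM with the hairpin (0.25, limma adjusted p = 0.0386). The scaffold AIMP2 read 24.3 and 26.2 FPKM and then 29.97 and 29.8 FPKM (0.23, limma adjusted p = 0.0178). EEF1E1, of the same list, pointed down without passing, from 14.8 and 15.1 FPKM to 11.9 and 14.5 FPKM (-0.17, limma adjusted p = 0.206). Of the 13 genes, 9 had log2 fold changes above 0 in set 1. In set 2 AIMP1 read 17.6 FPKM (18) and then 15.7 and 15.9 FPKM (-0.15, limma adjusted p = 0.222), and AIMP2 29.2 FPKM (27) and then 29.9 and 28.9 FPKM (0.011, limma adjusted p = 0.917).

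Genes of the amino acid response also fell for the most part in set 1 and rose for the most part in set 2. Of 18 tested genes 10 fell and 1 rose in set 1, and 13 rose and 2 fell in set 2, with medians of -0.34 and 0.25. Over all tested genes 6.61% fell and 9.33% rose in set 1, and 11.6% rose and 8.71% fell in set 2. ATF4 itself stood at 259.1 and 264.8 FPKM in the controls of set 1 and 208.2 and 200.6 FPKM with the hairpin (-0.36, limma adjusted p = 0.00137), and at 228.0 FPKM (229) and 264.4 and 267.6 FPKM in set 2 (0.22, limma adjusted p = 0.00657). CHAC1, which breaks down glutathione, read 10.7 and 8.89 FPKM and then 3.51 and 3.16 FPKM in set 1 (-1.31), and 5.32 FPKM (4) and then 12.8 and 12.1 FPKM in set 2 (1.09). PSAT1, of serine synthesis, read 59.5 and 56.1 FPKM and then 32.7 and 33.7 FPKM in set 1 (-0.78), and 46.0 FPKM (43) and then 69.2 and 69.2 FPKM in set 2 (0.58). PHGDH, the first enzyme of serine synthesis, fell by 0.67 and DDIT4, an inhibitor of mTORC1 signalling, by 0.73 in set 1. In set 2 the cystine carrier SLC7A11 rose by 0.57, while the transcription factor ATF5 fell by 0.84. Not all genes turned with the set: CEBPG fell in both (-0.34 and -0.39) and MTHFD2 rose in both (0.14 and 0.24). CEBPG was the 1 gene of the list called over both sets together (-0.36, limma adjusted p = 0.0479). ATF4, CHAC1 and PSAT1 were lower in every tested library named 1 or 2 than in any library named 3 or 4.

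**Figure D5:**
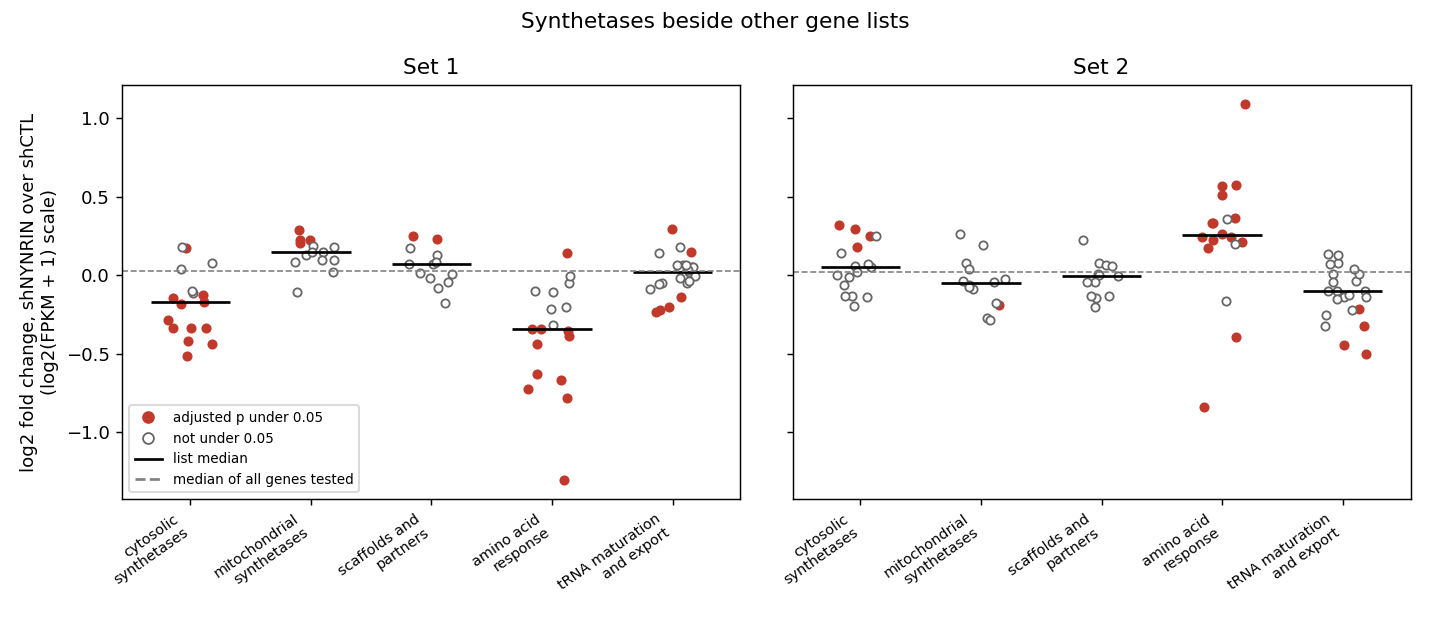
Log2 fold change of shNYNRIN over shCTL (vertical axis, log2(FPKM + 1) scale) for each tested gene of 5 lists, in set 1 (left) and set 2 (right); red points have an adjusted p under 0.05, black lines are list medians and the dashed line the median of all genes tested. The cytosolic synthetases (-0.17 and 0.054) and the amino acid response (-0.34 and 0.25) have medians below the dashed line in set 1 and above it in set 2, and the mitochondrial synthetases (0.15 and -0.052) the reverse.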

How the data were processed

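RNA of sorted KG-1a cells was sequenced with a template-switching kit (SMART-Seq v4), per the labels. The submitters' processing notes name Bowtie 0.12.9, Cufflinks 2.1.1 and HTSeq, and both hg38 and mm10 without a role for either. No source used here gives the annotation or whether strand was used. The deposited values of 7 libraries were read as FPKM from their scale, decimals and the tool named. The deposited column of shCTL replicate 3, whole numbers, was treated as a score. Set 1 comes with the authors' own test: their mean normalized count per gene (a signal that sums to 38529983 over genes), a deposited log2 ratio, a deposited p-value and a deposited q-value. The depth of each library is unknown.

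Groups and replicate numbers came from titles, columns were matched by library name, and all columns of library values were matched. The 12939 genes that reached 1 FPKM in 2 or more of the 7 libraries were tested with limma 3.58.1 in R 4.3.3 on log2(FPKM + 1), with a mean-variance trend and a threshold of 0.05. Effects within sets and their difference came from a model of group by table (3 residual degrees of freedom), and the effect over both sets from group plus table (4 residual degrees of freedom). The model was tested on simulated data. Since no label states that replicates were grown apart, p-values measure a spread between libraries that may be technical. The mean squared difference within replicate pairs was 3.22 to 6.35 times the counting variance implied by the mean counts, so none was counted as a duplicate.

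Whether replicate numbers pair libraries was checked by correlating deviations from group means over 5877 genes. Numbers of the titles gave r from -0.174 to -0.127, so they pair nothing. Numbers of the library names gave 0.101 to 0.152, all over 0.1, and were used as a block. Each such pair spans both tables, and pairs of unlike number across the tables gave as much (0.101 to 0.181 over all pairs across tables), so the check shows names 1 and 2 against 3 and 4 rather than a pairing by single number.

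Synthetase genes and gene lists were chosen with earlier results of these data known, and the grouping into complex and free enzymes was added during the analysis. All synthetases are accounted for; values per library are given for called ones and those of highest and lowest mean, and for each other list for up to 4 called genes per set. ATF4 and a few genes outside that rule were named after their values were seen. A few genes of these lists are not reported here and were left out of the counts and sums of their lists. Gene overlaps are from GENCODE 29 (hg38). Alternatives varied the pseudocount, filter, scaling, trend, shCTL replicate 3, blocks and single libraries.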

Additional observations from a re-analysis of the deposited data

Results flagged for a closer look

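The effect of the NYNRIN hairpin differed between the sets, by the interaction term, for 13 synthetases, and each value below is the log2 fold change of set 2 minus that of set 1. It was above 0 for GARS1 (0.7673), CARS1 (0.6866), AARS1 (0.6512), YARS1 (0.5165), WARS1 (0.4902), SARS1 (0.465), MARS1 (0.2733), QARS1 (0.2442) and TARS1 (0.2373). It was below 0 for EARS2 (-0.4711), RARS1 (-0.3195), AARS2 (-0.3187) and RARS2 (-0.2982). For FARS2 the lowest of the 4 shNYNRIN libraries, replicate 2 at 2.82 FPKM, was far from the others (3.24, 3.26 and 3.31 FPKM), with a gap of 0.855 of the whole range, above Dixon's 95% critical value for 4 samples. Chance alone flags about 1 in 20 such groups, and 31 were looked at.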

How the results depend on the processing

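No synthetase call reversed under any alternative run. Calls in set 1 (16 with all choices as reported) were 8 without a mean-variance trend, 9 from the 4 libraries of set 1 alone, 6 with a replicate block by title number in set 1 alone, and 6 to 16 with 1 library left out. Calls in set 2 (5) were 8 among genes of mean FPKM of at least 10, 9 with shCTL replicate 3 as deposited, 10 with 0.5 added to it, 2 without the trend, and 1 to 6 with 1 library left out. Calls for the difference (13) were 7 without the trend and 6 to 14 with 1 library left out. Calls over both sets (0) were 1 with shCTL replicate 3 as deposited or with 0.5 added, 10 for the mean of the sets, and 0 to 16 with 1 library left out. They stayed 0 with a replicate block by title number or by library-name number. Either block called 0 genes over all genes too, so these counts say nothing particular about the synthetases. With names 1 and 2 against 3 and 4 as the term the count was also 0, where 336 of all genes were called higher and 191 lower. The mitochondrial median of set 2 (-0.052) was 0.035 with shCTL replicate 3 as deposited and 0.0010 with 0.5 added. The other medians moved by less than the spread between replicates. The cause of these changes was not tested, beyond the fewer libraries that some alternatives hold. Set 2 and the difference have no value without shCTL replicate 4. The depth of single libraries is unknown, so no counting interval is given, and genes near 1 FPKM such as CARS1 carry the least precise values.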

Other observations

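Among genes that make or carry tRNA before it is charged, calls went in both directions in set 1 and down in set 2. Of 23 tested genes of tRNA maturation and export, 4 fell and 2 rose in set 1, and 4 fell and none rose in set 2, with medians of 0.021 and -0.10, where 6.61% of all tested genes fell and 9.33% rose in set 1, and 8.71% fell and 11.6% rose in set 2. XPOT, the tRNA exporter, read 47.2 and 47.5 FPKM in the controls of set 1 and 40.7 and 41.4 FPKM with the hairpin (-0.20, limma adjusted p = 0.00871). It did not pass in set 2, with 46.3 FPKM in shCTL replicate 4 and 48.2 and 49.1 FPKM with the hairpin. TSEN15, a subunit of the tRNA splicing endonuclease, fell by 0.23 in set 1 and THG1L, which adds a guanosine to histidine tRNA, by 0.22, while TSEN54, another subunit of the endonuclease, rose by 0.30. In set 2 the tRNA methyltransferase NSUN2 read 67.4 FPKM in shCTL replicate 4 and 47.3 and 47.2 FPKM with the hairpin (-0.50, limma adjusted p = 0.000547). WDR4, the partner subunit of a tRNA methyltransferase, fell by 0.45 there, TRMU, which thiolates mitochondrial tRNA, by 0.32 and the exporter XPO5 by 0.21.

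Of the 7 tested elongation factors that work with charged tRNA, EEF2, EEF1A1 and TUFM passed in at least 1 set. These 3 were also the most abundant of the 7. Over all tested genes 6.61% fell and 9.33% rose in set 1, and 8.71% fell and 11.6% rose in set 2. Of 4 tested cytosolic factors EEF2 and EEF1A1 fell in set 1, by 0.14 and 0.11, and EEF2 rose in set 2 by 0.25. EEF2 read 1018 and 1036 FPKM in the controls of set 1, 957 and 913 FPKM with the hairpin there, 847 FPKM in shCTL replicate 4, and 1010 and 1006 FPKM with the hairpin in set 2. Of 3 tested mitochondrial factors none passed in set 1, and TUFM rose in set 2 (0.13, limma adjusted p = 0.0384), from 132 FPKM in shCTL replicate 4 to 142 and 147 FPKM.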
